A study of Mus musculus with 24 samples.

Results

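The 33 genes described here are markers of brain regions: 7 of cerebral cortex and hippocampus, 7 of striatum, 3 of thalamus, 3 of cerebellum, 5 of monoamine neurons of the midbrain and brainstem, and 8 neuropeptide genes of the hypothalamus. They are given by gene symbol, by a rule that uses no measured value, though the list was drawn up with earlier results of these data known. All 33 were found among the 30153 genes of the deposited table. The table holds TPM, transcripts per 1000000, a level corrected for transcript length, from poly(A) RNA of 24 mouse samples that the labels call kidney. The study asked how a western diet acts on the kidney of hypertensive mice that carry a human angiotensin receptor type 1 gene. Its 6 groups of 4 animals, all of the C57/BL6 strain per the labels, were Hap-I aged, Hap-I adult, Hap-I aged on western diet, Hap-I adult on western diet, Hap-II adult on western diet and C57 adult. Hap-I and Hap-II are haplotypes I and II of the human receptor gene, and C57 adult is the group for which the labels give neither. For groups whose labels name no diet, its absence is taken from that silence. Sex, batch, exact age and the promoter of the human gene are not in the labels.

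The kidney label and the marker genes parted in 2 of the 6 groups. Summed over 7 nephron markers, the 4 Hap-I aged libraries held 1.69 to 7.73 TPM and the 4 Hap-I adult libraries 1.66 to 3.85 TPM, against 356 to 5631 TPM in the other 16 libraries. Summed over 6 pan-neuronal markers, the Hap-I aged libraries held 3889.5 to 4190.5 TPM and the Hap-I adult libraries 3410.5 to 4059 TPM, against 0.927 to 11.1 TPM in the other 16. These 8 libraries are called the 8 Hap-I libraries below, numbered 1 to 4 within each group. Between 18002 and 18761 genes were above 0 in each of them, against 15975 to 18449 in the other 16. TPM keep no read depth, so a gene without signal is given as listed at 0, with no limit of detection.

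Brain regions differ in the neurons they contain, and each kind of neuron keeps its identity through a set of transcription factors, transmitter enzymes, receptors and peptides. Projection neurons of cortex and hippocampus release glutamate, and their layers and fields are set by factors such as Tbr1, Fezf2, Cux2 and Prox1. Most striatal neurons are inhibitory spiny neurons that receive dopamine through the receptors Drd1 or Drd2, while the dopamine, serotonin and noradrenaline neurons themselves sit in small nuclei of the midbrain and brainstem. In bulk tissue, fewer cells of a type and less RNA per cell cannot be told apart.

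Cortical and hippocampal markers were present in all 8 Hap-I libraries, at means of 4.42 TPM (Rorb) to 152 TPM (Neurod6). Striatal markers were high as a set in Hap-I adult library 4, and without that library their means ran from 1.196 TPM (Adora2a) to 76.6 TPM (Ppp1r1b). Cerebellar members averaged 0.440 to 4.10 TPM, monoamine members 0.0667 to 1.06 TPM, and the hypothalamic peptides other than Sst 0.0651 to 1.65 TPM. By mean TPM over the 8, 13 members reached 10 TPM, 10 lay between 1 and 10 TPM, and 10 stayed under 1 TPM. The order began with Sst (324 TPM), Neurod6 (152 TPM), Ppp1r1b (151 TPM), Penk (111 TPM), Wfs1 (65.1 TPM) and Calb2 (41.1 TPM). Without Hap-I adult library 4, Ppp1r1b averaged 76.6 TPM, Penk 48.7 TPM, below Wfs1 at 67.2 TPM, and Rgs9 6.98 TPM, and 12 members reached 10 TPM. The order ended with Pcp2 (0.440 TPM), Slc6a3 (0.125 TPM), Oxt (0.101 TPM), Slc6a4 (0.0667 TPM) and Hcrt (0.0651 TPM). The median of all 13497 genes kept by the low filter, at least 1 TPM in at least 4 of the 8 libraries, was 16.3 TPM. Of the 33 members, 22 passed that filter. Sst, at 234 TPM or more, stayed above Neurod6, at 209 TPM or less, in every one of the 8. Neurod6 and Ppp1r1b, the next in order, did not differ beyond their spread, at 97.7 to 209 TPM and 61.1 to 671 TPM.

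**Figure D1:**
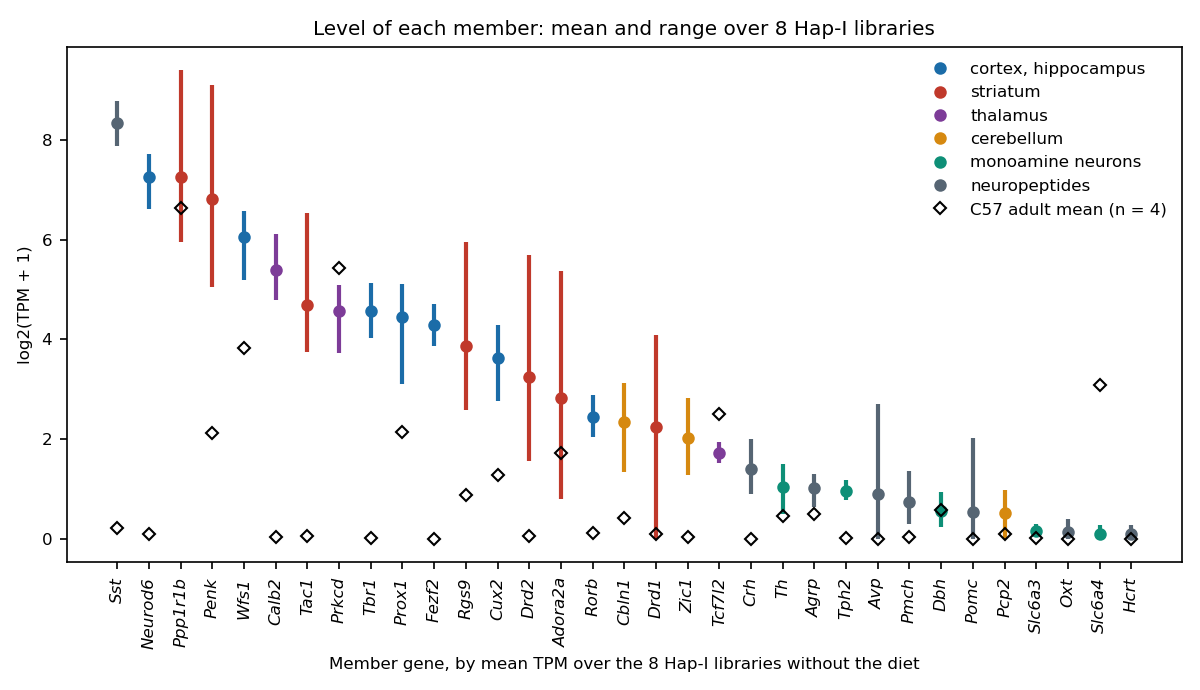
Level of each of the 33 members as log2(TPM + 1), ordered by mean TPM over the 8 Hap-I libraries. Points give the mean and lines the range over those libraries; Sst (324 TPM) is at the top of the order and Hcrt (0.0651 TPM) at its end, and the long lines of the striatal genes reach up to Hap-I adult library 4.

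Sst, the gene of the inhibitory peptide somatostatin, was the highest member and exceeded 97.4% of the genes kept. It lies on chromosome 16 (GRCm38 23889573 to 23890958, minus strand). Sst is a hypothalamic peptide gene that inhibitory interneurons of cortex and hippocampus also use. It had 305, 256, 346 and 439 TPM in Hap-I aged libraries, against 439, 234, 235 and 337 TPM in Hap-I adult libraries. The groups overlapped almost throughout. In the 16 other libraries Sst stayed at or below 0.495 TPM.

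Th encodes tyrosine hydroxylase, the first enzyme of dopamine and noradrenaline synthesis. It lies on chromosome 7 (GRCm38 142892752 to 142931128, minus strand) and had 0.836, 0.420, 1.39 and 0.983 TPM in Hap-I aged libraries, against 0.844, 1.14, 1.85 and 0.992 TPM in Hap-I adult libraries. Sst and Th thus stood far apart in level, and their promoters are shown because both hold the complete cAMP response element, the letters TGACGTCA, at a like distance from the start. The element begins 48 bases before the start of Sst and 45 bases before that of Th. The windows are the 250 bases upstream of the RefSeq start on GRCm38.p6, chr16:23890845-23891094 and chr7:142899996-142900245, both on the minus strand, printed 5′ to 3′ with the element in capitals.
Sst: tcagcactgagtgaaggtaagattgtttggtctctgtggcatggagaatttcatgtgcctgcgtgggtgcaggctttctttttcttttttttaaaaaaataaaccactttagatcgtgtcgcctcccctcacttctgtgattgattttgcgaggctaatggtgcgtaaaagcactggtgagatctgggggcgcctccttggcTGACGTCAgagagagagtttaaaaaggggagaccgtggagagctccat
Th: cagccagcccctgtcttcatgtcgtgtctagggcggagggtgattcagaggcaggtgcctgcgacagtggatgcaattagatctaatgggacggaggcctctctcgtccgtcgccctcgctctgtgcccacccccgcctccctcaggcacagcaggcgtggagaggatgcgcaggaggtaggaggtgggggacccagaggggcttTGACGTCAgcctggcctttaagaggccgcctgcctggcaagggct
Promoter windows were found for 26 of the 33 members. The complete element, which reads the same on both strands, was in windows of 2 members, Sst and Th. Among 32536 windows of all genes, 1.56% held it. The half-site TGACG, searched on both strands and contained in the complete element, was in windows of 7 members and in 17.9% of all windows. A match of letters is a description and not evidence of binding.

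The 7 cortical and hippocampal members were above every one of the 16 other libraries in each of the 8 Hap-I libraries. Summed, they gave 365, 329.6, 301 and 332 TPM in Hap-I aged libraries, against 307, 296, 220.1 and 209 TPM in Hap-I adult libraries. The other 16 libraries held 1.27 to 26.1 TPM. Neurod6, a factor of excitatory forebrain neurons, lies on chromosome 6 (GRCm38 55677822 to 55681263, minus strand). It had 209, 208, 140.4 and 154 TPM in Hap-I aged libraries, against 151, 155, 103 and 97.7 TPM in Hap-I adult libraries. Aged libraries 1 and 2 were above all adult libraries, and the groups met at 140.4 and 155 TPM.

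Tbr1, a factor of deep cortical layers, had 17.7, 15.4, 33.9 and 25.4 TPM in Hap-I aged libraries, against 17.4, 20.9, 32.8 and 17.9 TPM in Hap-I adult libraries. Rorb, a nuclear receptor of the layer that receives thalamic input, had 3.64, 3.45, 6.42 and 3.54 TPM in Hap-I aged libraries, against 3.14, 3.74, 6.36 and 5.03 TPM in Hap-I adult libraries. Cux2, a factor of upper cortical layers, had 5.79, 6.10, 18.5 and 14.9 TPM in Hap-I aged libraries, against 8.73, 9.21, 14.8 and 13.1 TPM in Hap-I adult libraries. All 3 genes were highest in library 3 of either group, where the number only names a library. Lamp5, another gene of upper layers chosen after its values were seen, had 177 TPM in aged library 3 and 142 TPM in adult library 3, and at most 60.2 TPM in the other aged and 84.8 TPM in the other adult libraries. It is 1 of 17 further cortical genes, which did not share this pattern as a set. Of these, 13 were above their own median over the 8 libraries in aged library 3, but 6 in adult library 3.

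Prox1, a factor of dentate granule neurons, lies on chromosome 1 (GRCm38 190118035 to 190170714, minus strand). It had 33.5, 24.3, 23.7 and 26.9 TPM in Hap-I aged libraries, against 7.67, 24.7, 14.3 and 10.99 TPM in Hap-I adult libraries. Adult library 2 was the one adult value inside the aged range. Wfs1, an endoplasmic reticulum protein and marker of hippocampal field CA1 that many other cells also express, had 76.9, 54.3, 61.9 and 82.5 TPM in Hap-I aged libraries, against 94.6, 65.2, 35.3 and 49.8 TPM in Hap-I adult libraries. Fezf2, a factor of subcortically projecting neurons, had 18.2, 18.002, 16.7 and 25.2 TPM in Hap-I aged libraries, against 24.2, 17.5, 13.6 and 14.3 TPM in Hap-I adult libraries, and was listed at 0 in all 16 others. Adult libraries 3 and 4 were the lowest of the 8 for Fezf2, Neurod6 and Wfs1.

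Of 10 further hippocampal genes, Rgs14, a signalling protein of field CA2, was the highest. Rgs14 had 98.5, 80.0, 74.6 and 87.7 TPM in Hap-I aged libraries, against 95.7, 70.1, 36.1 and 61.0 TPM in Hap-I adult libraries. Relative to its median over the 8 libraries, the median of these 10 genes on the log2 scale was 0.46 in aged library 1, -0.83 in adult library 3 and -0.30 in adult library 4. All 10 were above their own median in aged library 1 and 0 of 10 in adult library 3. Adult library 3 thus held low hippocampal levels beside high Tbr1, Rorb and Cux2.

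**Figure D2:**
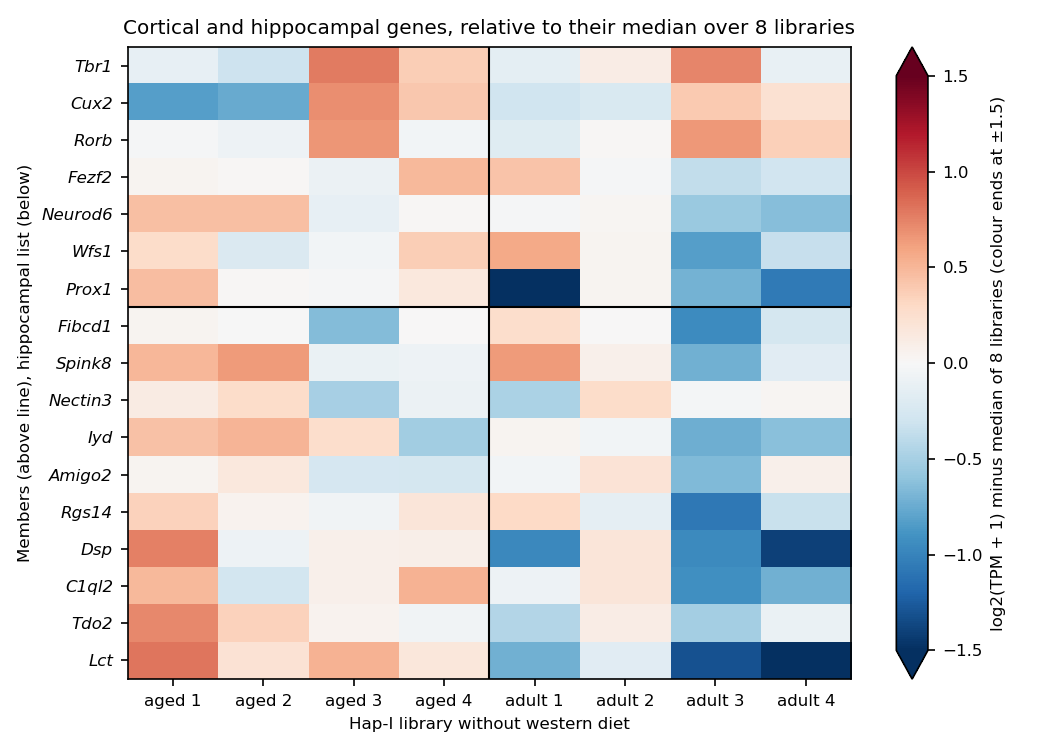
The 7 cortical and hippocampal members (above the line) and 10 further hippocampal genes (below it) in the 8 Hap-I libraries, aged left of adult, as log2(TPM + 1) minus the gene's median over the 8, with colours ending at ±1.5. Tbr1, Cux2 and Rorb are high in library 3 of both groups, and the hippocampal genes are low in adult library 3, where their median is -0.83.

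All 7 striatal members had their highest value in Hap-I adult library 4. Drd2, a dopamine receptor that inhibits adenylate cyclase, lies on chromosome 9 (GRCm38 49340627 to 49408177, plus strand) and had 2.26, 2.49, 4.00 and 2.32 TPM in Hap-I aged libraries, against 1.96, 2.20, 2.33 and 50.7 TPM in Hap-I adult libraries. Adora2a, the adenosine receptor that the same neurons carry, lies on chromosome 10 (GRCm38 75316877 to 75334784, plus strand) and had 0.743, 0.914, 2.08 and 1.39 TPM in Hap-I aged libraries, against 1.25, 0.882, 1.11 and 40.6 TPM in Hap-I adult libraries. Drd1, the receptor of the other class of spiny neurons, had 1.25, 2.06, 5.46 and 3.36 TPM in Hap-I aged libraries, against 0.676, 0.000438, 0.905 and 15.97 TPM in Hap-I adult libraries. Adult library 4 exceeded the highest of the other 7 libraries 12.7-fold for Drd2, 19.5-fold for Adora2a and 2.92-fold for Drd1.

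Among intracellular proteins, Rgs9, which shortens G protein signalling, had 6.62, 6.26, 9.52 and 7.42 TPM in Hap-I aged libraries, against 6.94, 7.06, 5.03 and 60.7 TPM in Hap-I adult libraries. Ppp1r1b, the phosphatase inhibitor DARPP-32, had 61.1, 63.4, 115 and 69.3 TPM in Hap-I aged libraries, against 73.4, 79.2, 74.6 and 671 TPM in Hap-I adult libraries. For both, 7 of the 8 libraries lay close together and adult library 4 stood 6.37-fold and 5.84-fold above the highest of them.

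Of the peptide precursors, Penk, which gives enkephalins and is used by Drd2 neurons, had 60.4, 48.3, 69.0 and 43.6 TPM in Hap-I aged libraries, against 51.4, 32.2, 36.2 and 549.9 TPM in Hap-I adult libraries. Tac1, which gives substance P and is used by Drd1 neurons, had 13.5, 14.5, 23.4 and 15.0 TPM in Hap-I aged libraries, against 12.4, 12.7, 16.6 and 91.7 TPM in Hap-I adult libraries. The highest of the other 7 libraries was exceeded 7.96-fold for Penk and 3.92-fold for Tac1 in adult library 4. Genes of both classes of spiny neuron were therefore high in the same library. The design gives 1 animal per library, so these values describe 1 animal.

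Over all genes, 15 of 13497 (0.111%) were at least 3-fold higher in adult library 4 than in any of the other 7, and 6 of these 15 were members: Adora2a, Drd2, Penk, Ppp1r1b, Rgs9 and Tac1. Drd1, at 2.92-fold, lay just outside. Of 13 further striatal genes, all 13 were also highest in adult library 4. Gng7, a G protein subunit of spiny neurons and the highest of them on average, had 154, 129, 117 and 133 TPM in Hap-I aged libraries, against 115, 121, 91.9 and 267 TPM in Hap-I adult libraries. Chat, the enzyme of acetylcholine synthesis in striatal and other cholinergic neurons, comes from the list of further monoamine and brainstem genes. Chosen after its values were seen, it was at 2.76 TPM in adult library 4 and at most 0.172 TPM in the other 7. Chat thus failed the low filter, without which 280 genes were at least 3-fold higher in adult library 4.

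Summed striatal members gave 146, 138, 228 and 142 TPM in Hap-I aged libraries, against 148, 134, 137 and 1481 TPM in Hap-I adult libraries. Adult library 4 held the lowest cortical and hippocampal sum (209 TPM) and the lowest sum of 7 glial markers (2246 TPM, against 2743 to 3105 TPM in the other adult libraries). Relative to each gene's own median, the median of the 7 cortical and hippocampal members on the log2 scale was -0.29 in adult library 4. In adult library 3 it was lower, at -0.36. The pan-neuronal sum of adult library 4, 3515 TPM, lay inside the range of the others. The part of these differences in the striatal values was not tested. After adult library 4, aged library 3 was the highest for every striatal member, from 2.08 TPM for Adora2a to 115 TPM for Ppp1r1b.

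**Figure D3:**
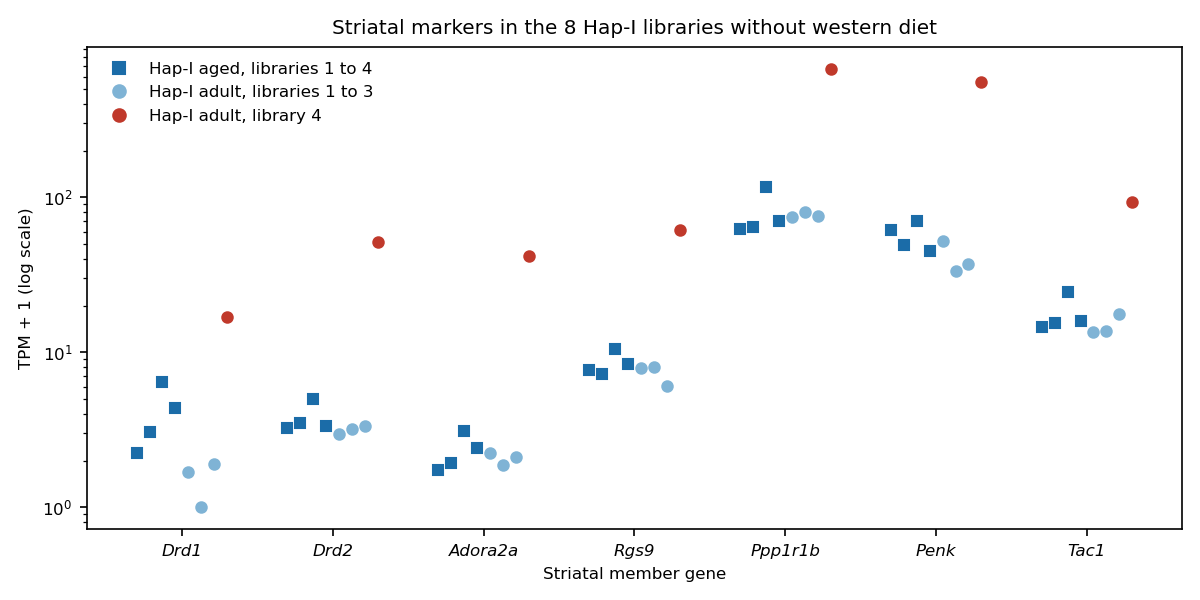
TPM + 1 on a log scale for the 7 striatal members in the 4 Hap-I aged and 4 Hap-I adult libraries, 1 point per library, aged left of adult. Adult library 4 is the highest point of every gene (50.7 TPM for Drd2 and 671 TPM for Ppp1r1b), and the other 7 libraries lie below it.

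Promoters of 3 striatal members that were high together are shown to set their letters side by side. They are the 250 bases upstream of the RefSeq start on GRCm38.p6, printed 5′ to 3′: Drd2 at chr9:49340153-49340402 (plus strand), Rgs9 at chr11:109298182-109298431 (minus strand) and Tac1 at chr6:7554811-7555060 (plus strand). Capitals mark the half-site TGACG or its reverse complement CGTCA.
Drd2: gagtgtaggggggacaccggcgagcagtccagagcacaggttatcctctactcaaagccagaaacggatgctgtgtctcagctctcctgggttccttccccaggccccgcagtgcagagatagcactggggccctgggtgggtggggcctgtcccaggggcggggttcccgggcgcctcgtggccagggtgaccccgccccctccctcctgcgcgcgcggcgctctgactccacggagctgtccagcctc
Rgs9: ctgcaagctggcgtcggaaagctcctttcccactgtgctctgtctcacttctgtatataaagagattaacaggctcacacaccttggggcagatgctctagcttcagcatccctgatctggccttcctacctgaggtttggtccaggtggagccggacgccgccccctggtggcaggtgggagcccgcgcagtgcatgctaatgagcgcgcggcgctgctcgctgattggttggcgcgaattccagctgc
Tac1: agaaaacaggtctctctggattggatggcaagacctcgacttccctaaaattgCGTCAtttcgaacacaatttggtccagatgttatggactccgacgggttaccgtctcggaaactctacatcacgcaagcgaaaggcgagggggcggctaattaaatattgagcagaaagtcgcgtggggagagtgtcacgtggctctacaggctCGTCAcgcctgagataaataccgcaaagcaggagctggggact
The windows of Drd2 and Rgs9 hold no half-site and that of Tac1 holds 2. Their share of G and C was 68.8% for Drd2, 59.6% for Rgs9 and 51.2% for Tac1. High values in adult library 4 were thus shared by windows that differ in both respects.

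The 3 thalamic members gave no common picture. Calb2, the calcium-binding protein calretinin of thalamic neurons and of cortical interneurons, had 26.6, 43.6, 29.9 and 45.6 TPM in Hap-I aged libraries, against 36.8, 45.5, 32.4 and 68.7 TPM in Hap-I adult libraries. Prkcd, a protein kinase C of thalamic relay neurons and many other tissues, lies on chromosome 14 (GRCm38 30595354 to 30626210, minus strand) and had 33.2, 25.7, 31.2 and 23.4 TPM in Hap-I aged libraries, against 19.7, 23.9, 12.9 and 12.2 TPM in Hap-I adult libraries. Tcf7l2, a Wnt pathway factor of thalamus and many epithelia, had 2.01, 2.41, 2.42 and 2.85 TPM in Hap-I aged libraries, against 1.95, 2.67, 2.35 and 1.87 TPM in Hap-I adult libraries. Prkcd was lower in adult libraries 3 and 4 than anywhere else among the 8, while Calb2 was highest in adult library 4. Tcf7l2 and Prkcd were also present in the 16 other libraries, at 1.02 to 5.84 TPM and 7.56 to 49.0 TPM. Of 12 further genes of thalamus and habenula, Ntng1, an axon guidance protein, was the highest at a mean of 16.7 TPM.

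Of the cerebellar members, Cbln1, a synaptic organizer released by granule cells, had 1.54, 2.07, 3.47 and 7.79 TPM in Hap-I aged libraries, against 6.19, 3.78, 4.12 and 3.85 TPM in Hap-I adult libraries. Zic1, a factor of cerebellar granule cells that meninges also express, had 1.95, 3.54, 6.08 and 3.06 TPM in Hap-I aged libraries, against 1.90, 5.01, 1.44 and 1.55 TPM in Hap-I adult libraries. Pcp2, a Purkinje cell protein, did not reach 1 TPM in any of the 8, with 0.214 to 0.985 TPM in Hap-I aged and 0 to 0.719 TPM in Hap-I adult libraries. Pcp2 is uncertain, since 46.6% of its 31-base words also occur in transcripts of Pet100. Gabra6, a receptor subunit that marks cerebellar granule cells and was chosen after its values were seen, was at most 0.170 TPM. Itpr1, a calcium channel abundant in Purkinje cells and present in forebrain neurons, was the highest of 13 further cerebellar genes at a mean of 35.6 TPM.

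The 5 monoamine members did not exceed 1.85 TPM, the highest value of Th, in any of the 8 libraries. Tph2, which makes serotonin in neurons, had 0.964, 0.872, 1.05 and 0.715 TPM in Hap-I aged libraries, against 0.713, 0.893, 1.21 and 1.28 TPM in Hap-I adult libraries. Dbh, which makes noradrenaline, had 0.290 to 0.684 TPM in Hap-I aged and 0.188 to 0.920 TPM in Hap-I adult libraries. Slc6a3, the dopamine transporter, stayed at or below 0.227 TPM in Hap-I aged and 0.191 TPM in Hap-I adult libraries. The dopamine enzyme and receptor genes therefore differed in level: Drd2 reached 50.7 TPM in the library in which Th was at 0.992 TPM and Slc6a3 at 0.0683 TPM.

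Slc6a4, the serotonin transporter, was the one member lower in all 8 Hap-I libraries than in all 16 others. It lies on chromosome 11 (GRCm38 76998603 to 77032340, plus strand) and had 0.0206, 0.0836, 0 and 0.0982 TPM in Hap-I aged libraries and 0.0228, 0.218, 0.0530 and 0.0378 TPM in Hap-I adult libraries. The other 16 libraries held 1.33 to 16.5 TPM. Tph2, its partner in serotonin neurons, ran the other way and stayed at or below 0.0844 TPM in those 16. Ddc, the decarboxylase shared by dopamine and serotonin synthesis, was the highest of 17 further genes of this class at a mean of 8.08 TPM over the 8.

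Apart from Sst, the hypothalamic peptide genes were low and uneven. Crh, corticotropin-releasing hormone, which cortical interneurons also make, had 1.10, 0.866, 2.25 and 1.53 TPM in Hap-I aged libraries, against 1.32, 0.995, 3.01 and 2.15 TPM in Hap-I adult libraries, and was listed at 0 in the 16 others. Library 3 was the highest of either group, as it was for Tbr1, Cux2 and Rorb. Agrp and Pmch, whose peptides raise food intake, had 0.557 to 1.46 and 0.349 to 1.58 TPM in Hap-I aged libraries, against 0.613 to 1.25 and 0.231 to 0.682 TPM in Hap-I adult libraries. Pmch is uncertain, since 52.4% of its 31-base words occur in transcripts of Parpbp. Npy, neuropeptide Y of hypothalamic and cortical neurons, was the highest of the further hypothalamic genes at a mean of 161 TPM.

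Avp, the gene of vasopressin, had 0, 0.977, 0.343 and 5.55 TPM in Hap-I aged libraries and was listed at 0 in all 4 Hap-I adult libraries. Pomc, the precursor of corticotropin and melanocortins in pituitary and hypothalamus, had 0.206, 0, 0 and 3.09 TPM in Hap-I aged libraries, against 0, 0.344, 0 and 0 TPM in Hap-I adult libraries. Both were highest in aged library 4. The sum of 8 pituitary genes was 0.208, 26.4, 0.291 and 21.4 TPM in Hap-I aged libraries, against 0.459, 1.73, 0.481 and 0.871 TPM in Hap-I adult libraries, so it was high in aged libraries 2 and 4. Its part in the Avp and Pomc values was not tested. Oxt, oxytocin, stayed at or below 0.190 TPM in Hap-I aged and 0.315 TPM in Hap-I adult libraries. Hcrt, hypocretin of the lateral hypothalamus, stayed at or below 0.126 TPM in Hap-I aged and 0.215 TPM in Hap-I adult libraries. Avp and Oxt are neighbours on chromosome 2 that share 17.7% of the 31-base words of Avp and 19.1% of those of Oxt, so a low value of either is uncertain.

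**Figure D4:**
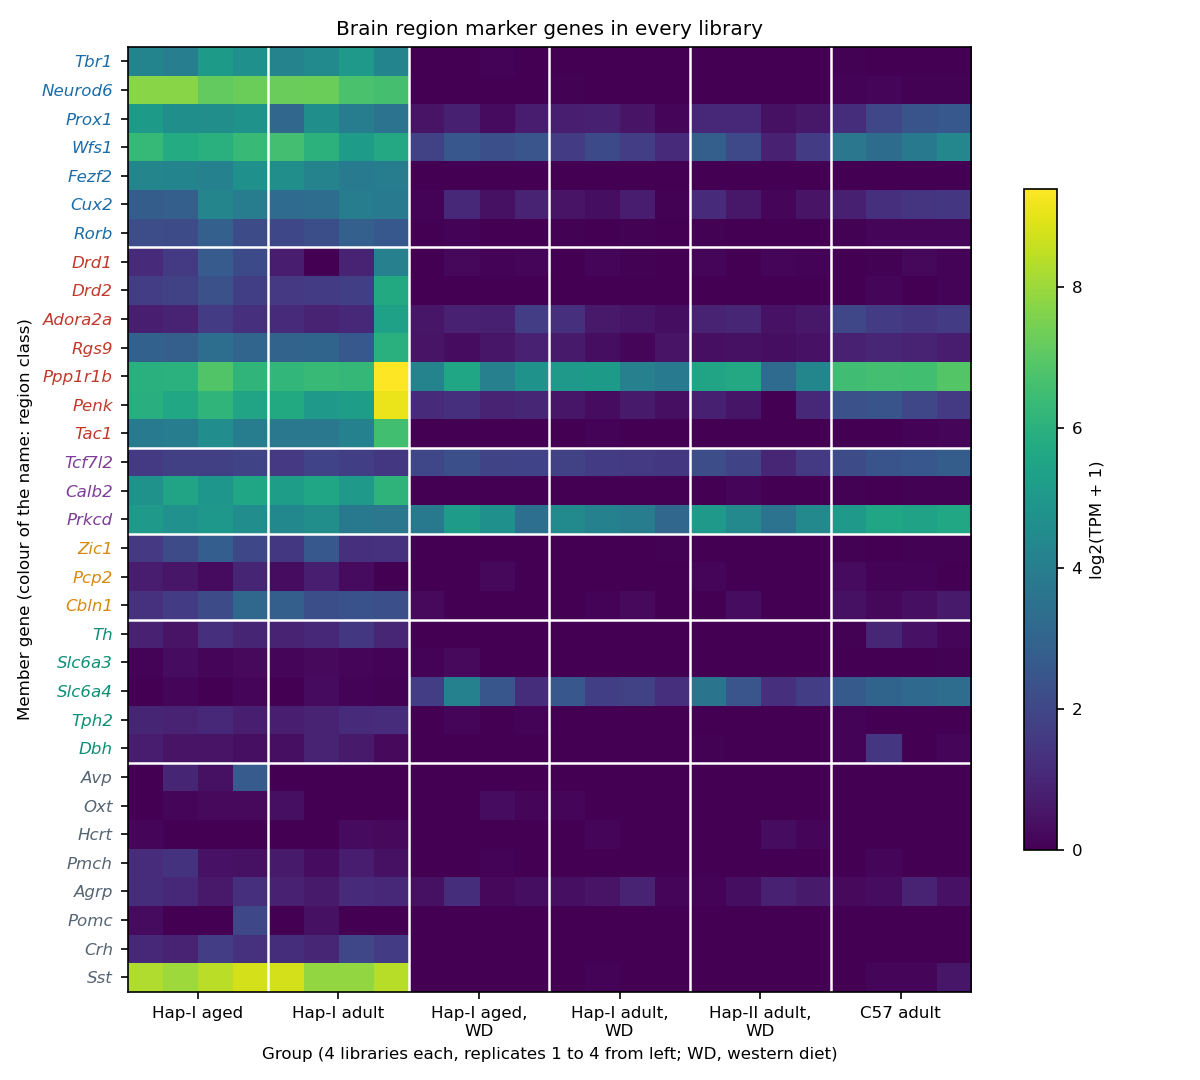
The 33 members (rows) in all 24 libraries (columns) as log2(TPM + 1), with the Hap-I aged and Hap-I adult libraries without the diet on the left. Cortical and hippocampal rows are brighter in those 8 libraries than in the other 16, and striatal rows peak in Hap-I adult library 4 (671 TPM for Ppp1r1b). Slc6a4 is brighter in the other 16 (1.33 to 16.5 TPM).

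Members kept by the filter varied more among the 8 libraries than the median gene. The median coefficient of variation of the 22 members kept was 41.5%, against 17.3% over all genes kept, and without Hap-I adult library 4 it was 28.6%, against 17.5%. The striatal members set the upper end, from 109% for Tac1 to 228% for Adora2a, and Tcf7l2 set the lower end at 15.1%. Without adult library 4 the striatal values fell to 24.5% for Tac1, 37.7% for Adora2a, 27.0% for Drd2, 23.6% for Ppp1r1b, 26.6% for Penk and 19.5% for Rgs9, and Drd1 alone stayed high at 96.2%. Among cortical and hippocampal members the values lay between 22.8% for Fezf2 and 42.5% for Prox1.

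Age was compared between the 4 Hap-I aged and 4 Hap-I adult libraries with limma on log2(TPM + 1). None of the 22 members tested passed an adjusted p of 0.05 with Benjamini-Hochberg correction, and 3 had an unadjusted p under 0.05. Over all 13497 genes tested, 4 passed (0.0296%) and 2081 had an unadjusted p under 0.05. The group ranges overlapped for all 22 members, against no overlap for 11.1% of all genes. Of the 22 log2 changes, 11 were positive and 11 negative, with a median of -0.02 beside 0.12 over all genes tested.

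The smallest p-values among the members belonged to Prkcd, Prox1 and Neurod6. Prkcd averaged 28.4 ± 4.59 TPM in Hap-I aged and 17.2 ± 5.62 TPM in Hap-I adult libraries (SD, n = 4 each), a log2 change of 0.73 ± 0.21 (SE; limma adjusted p = 0.215). Prox1 averaged 27.1 ± 4.48 TPM in Hap-I aged and 14.4 ± 7.39 TPM in Hap-I adult libraries, a log2 change of 0.97 ± 0.28 (limma adjusted p = 0.215). Neurod6 averaged 178 ± 35.9 TPM in Hap-I aged and 127 ± 30.5 TPM in Hap-I adult libraries, a log2 change of 0.50 ± 0.19 (limma adjusted p = 0.271). Their unadjusted limma p were 0.0053, 0.0053 and 0.025, and none of the 3 passed after adjustment over all genes tested. The 10 further hippocampal genes had a median log2 change of 0.47, and 0 of 10 passed. Their largest, Lct, the enzyme lactase, which was chosen after its values were seen, had a log2 change of 1.53 (limma adjusted p = 0.196). The aged libraries also held more glial signal, 3587 to 4435 TPM summed over 7 markers against 2246 to 3105 TPM in adult libraries, and the part of this in the member values was not tested.

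The striatal members had the widest errors of this comparison, and these rested on Hap-I adult library 4. Adora2a averaged 1.28 ± 0.599 TPM in Hap-I aged and 10.96 ± 19.8 TPM in Hap-I adult libraries, a log2 change of -0.98 ± 0.83 (limma adjusted p = 0.586). Without adult library 4 that change was 0.10 ± 0.22, and those of Drd2, Rgs9, Penk and Tac1 also turned positive, at 0.23, 0.20, 0.47 and 0.22. Drd1 averaged 3.03 ± 1.84 TPM in Hap-I aged and 4.39 ± 7.73 TPM in Hap-I adult libraries. Its log2 change of 0.46 ± 0.73 (limma adjusted p = 0.793) became 1.34 ± 0.36 without adult library 4 (limma adjusted p = 0.305), when adult libraries 1 to 3 averaged 0.527 ± 0.470 TPM. Without it, 15 members had a positive and 7 a negative change, and 0 of 22 passed. Sst, Tbr1, Rorb and Cux2 changed by 0.14, 0.03, -0.08 and -0.14 on the log2 scale, each within its error.

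**Figure D5:**
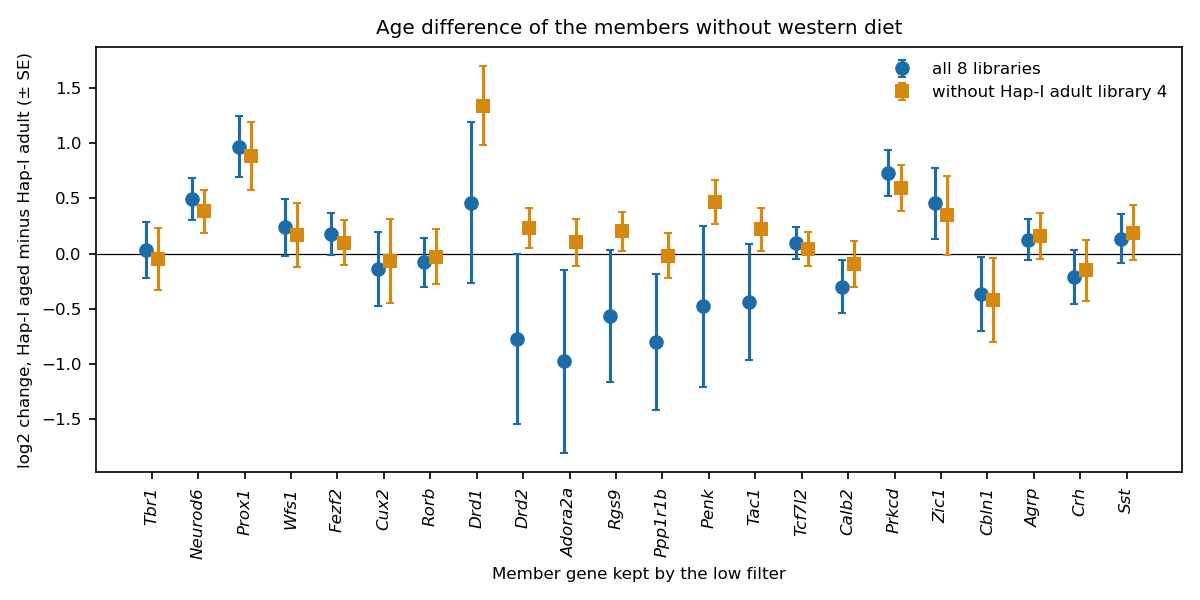
The log2 change of the 22 members kept, Hap-I aged minus Hap-I adult, with its SE from limma, for all 8 libraries and without Hap-I adult library 4. No member passed an adjusted p of 0.05, and the striatal members move most between the fits (Adora2a from -0.98 to 0.10).

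Hap-I adult and C57 adult libraries were compared to see which members were present beyond the level of a kidney. They differ in genotype label, haplotype I against neither haplotype, and in the tissue markers above. The effects of genotype and of tissue content cannot be told apart. Of 20 members that passed the low filter in these 8 libraries, 15 were higher and 3 lower in Hap-I adult libraries (limma, adjusted p under 0.05). Over all 14249 genes tested, 76.8% passed: 7009 genes (49.2% of those tested) were higher and 3933 (27.6%) lower. The median change was 0.43 over all genes, and after median-of-ratios or quantile scaling the split became 5378 higher and 5460 lower or 5294 higher and 5622 lower. A member that passed the filter through 1 of the 2 groups alone had to differ, so the count is a description.

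All 7 cortical and hippocampal members were among the 15. Neurod6 averaged 127 ± 30.5 TPM in Hap-I adult and 0.0698 ± 0.0304 TPM in C57 adult libraries, a log2 change of 6.87 ± 0.18. That of Sst was 8.02 ± 0.22. Both passed the filter through the Hap-I libraries alone, so these changes are given with no test. The same limit holds for Tbr1, Fezf2, Cux2, Rorb, Calb2, Zic1 and Cbln1 within the count of 15. Wfs1 and Prox1, both present in kidney, averaged 61.2 ± 25.4 and 14.4 ± 7.39 TPM in Hap-I adult libraries, against 13.3 ± 4.23 and 3.43 ± 1.65 TPM in C57 adult libraries, and changed by 2.08 and 1.77. The striatal members among the 15 were Tac1, Penk, Rgs9 and Drd2, with changes of 4.50, 4.18, 2.76 and 2.60. Without Hap-I adult library 4 these changes were 3.83, 3.24, 1.99 and 1.59. Tac1, Rgs9 and Drd2 passed the filter through the Hap-I libraries alone, so their changes are given with no test. Penk, at 1.99 to 4.38 TPM in C57 adult libraries, still passed without that library.

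The 3 lower members are expressed in kidney. Slc6a4 averaged 0.0828 ± 0.0907 TPM in Hap-I adult and 7.45 ± 1.64 TPM in C57 adult libraries, a log2 change of -2.95 ± 0.17, given with no test because it passed the filter through the C57 libraries alone. Prkcd averaged 17.2 ± 5.62 TPM in Hap-I adult and 42.2 ± 6.78 TPM in C57 adult libraries, a change of -1.29 ± 0.22. Tcf7l2 averaged 2.21 ± 0.374 TPM in Hap-I adult and 4.67 ± 0.941 TPM in C57 adult libraries, a change of -0.81 ± 0.16. Ppp1r1b and Adora2a did not pass, at 0.41 ± 0.60 and 0.42 ± 0.83. C57 adult libraries held 89.7 to 117 TPM of Ppp1r1b and 1.81 to 3.05 TPM of Adora2a, above Hap-I adult libraries 1 to 3 in both. Without Hap-I adult library 4 both changes were negative and passed, at -0.37 for Ppp1r1b (limma adjusted p = 0.0313) and -0.66 for Adora2a (limma adjusted p = 0.00492), which made 15 members higher and 5 lower. Adora2a met the filter through the C57 libraries alone, so its call carries the limit given for Slc6a4.

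Set against all 16 other libraries, 18 of the 33 members were higher without overlap in the 8 Hap-I libraries, 1 was lower (Slc6a4) and 14 overlapped. Of 15200 genes kept over the 24 libraries, 41.3% were higher and 11.7% lower without overlap, and of the 24 members among them 16 were higher and 1 lower. Members such as Sst and Slc6a4 passed that filter through 1 of these sets alone, which favours a lack of overlap. The counts are therefore a description. The 18 were all 7 cortical and hippocampal members, Drd2, Rgs9, Penk and Tac1 of the striatum, Calb2, Zic1, Cbln1, Tph2, Pmch, Crh and Sst. Ppp1r1b, Adora2a, Prkcd and Tcf7l2 overlapped at levels that kidney libraries also reached, and Oxt and Hcrt were listed at 0 in some libraries of both sets. Avp and Pomc were listed at 0 in all 16 other libraries and in some of the 8.

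Over the 16 kidney libraries, those on western diet and those of C57 adult mice, 9 members passed the low filter. They were Ppp1r1b, Prkcd, Slc6a4, Tcf7l2, Wfs1, Adora2a, Prox1, Penk and Cux2. With the C57 adult libraries left out, 5 members passed it, and Adora2a, Prox1, Penk and Cux2 did not. Between Hap-I aged and Hap-I adult mice on the diet, 0 of the 9 passed and 1 had an unadjusted p under 0.05 (limma). Over all 12923 genes, 4 passed (0.031%) and 2080 had an unadjusted p under 0.05. Penk had 1.18, 1.43, 0.864 and 0.999 TPM in Hap-I aged kidneys, against 0.500, 0.246, 0.592 and 0.319 TPM in Hap-I adult kidneys on the diet. The groups did not overlap, as was so for 6.82% of all genes tested, and the log2 change was 0.58 ± 0.24 (limma adjusted p = 0.259). Slc6a4 had 2.23, 16.5, 4.77 and 1.33 TPM in Hap-I aged kidneys, against 4.79, 2.37, 2.61 and 1.38 TPM in Hap-I adult kidneys on the diet, with overlap. The 9 changes ran from 0.01 to 0.64 beside a median of 0.32 over all genes, and those of Ppp1r1b, Prkcd and Prox1 became negative under both median-of-ratios and quantile scaling.

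Between Hap-I adult and Hap-II adult mice on the diet, 0 of the same 9 members passed and 0 had an unadjusted p under 0.05 (limma), against 10 of 12923 genes that passed (0.0774%) and 421 with an unadjusted p under 0.05. Prkcd had 20.7, 16.4, 14.7 and 7.56 TPM in Hap-I adult kidneys, against 33.1, 20.7, 10.99 and 20.6 TPM in Hap-II adult kidneys. The groups overlapped. The 9 changes ran from -0.48 to -0.05 beside a median of -0.22 over all genes, and those of Adora2a, Tcf7l2, Wfs1, Penk and Ppp1r1b became positive under both scalings. This comparison and the previous one share the Hap-I adult kidneys on the diet.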

How the data were processed

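Poly(A) RNA of 24 mouse samples was sequenced from stranded TruSeq libraries, per the labels' protocols. The values deposited by the authors are TPM per gene, and their sums per library lie between 904693 and 944019. Kallisto, DESeq2 and GRCm38 appear in the submitters' processing notes, which give neither versions nor roles. TPM hold no depth, so counting intervals are not given. Each column was matched to its sample by the code in the sample title.

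Gene symbols and positions were taken from GENCODE M21 (GRCm38). Of 30153 identifiers, 29732 matched. The members and all lists were chosen with earlier results of these data known. The rule for named genes took all 33 members and, of each other list, the gene with the highest mean over the 8 Hap-I libraries, which is given for the lists described. Lamp5, Chat, Gabra6 and Lct fall outside it.

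Tests used limma 3.58.1 in R 4.3.3 on log2(TPM + 1), with a mean-variance trend, two-sided, with Benjamini-Hochberg adjustment over all genes that reached 1 TPM in 4 or more libraries of the fit. Changes on this scale understate those of low genes. The comparisons with Hap-I mice without the diet used only the 2 groups compared; those on the diet used all 16 kidney libraries. The procedure was tested on simulated data. Alternatives covered the pseudocount, the low filter, scaling, array weights, the libraries in the fit, mitochondrially encoded genes, a block and leaving out each library. Promoter windows came from RefSeq on GRCm38.p6.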

Additional observations from a re-analysis of the deposited data

Results flagged for a closer look

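In groups of 4 libraries, a value was marked when the gap to its nearest neighbour, divided by the range of the group, exceeded Dixon's critical value. Of 65 groups of member values tested, 19 were marked. The critical value marks about 1 in 20 groups of independent, normally distributed values, and TPM of genes from the same libraries are not such values. A group with 1 value above 0 is always marked, as were Hcrt in aged and Oxt and Pomc in adult libraries. The count is therefore a description. Of the 19, 7 were the striatal members in Hap-I adult library 4: Drd1 at 15.97 TPM, Drd2 at 50.7 TPM, Adora2a at 40.6 TPM, Rgs9 at 60.7 TPM, Ppp1r1b at 671 TPM, Penk at 549.9 TPM and Tac1 at 91.7 TPM. In Hap-I aged library 3, Rorb at 6.42 TPM, Drd2 at 4.00 TPM, Ppp1r1b at 115 TPM and Tac1 at 23.4 TPM stood above the other aged libraries.

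Among the other Hap-I adult values, Zic1 at 5.01 TPM, Slc6a3 at 0.191 TPM, Slc6a4 at 0.218 TPM and Pomc at 0.344 TPM were set apart in library 2, and Cbln1 at 6.19 TPM and Oxt at 0.315 TPM in library 1. Adult library 2 also held 5581 TPM summed over 6 choroid plexus genes, against 20.9 to 428 TPM in the other adult libraries; the part of this in the Zic1 value was not tested. In Hap-I aged libraries, Hcrt at 0.126 TPM in library 1 and Pomc at 3.09 TPM in library 4 were set apart. The marked values of Slc6a3, Slc6a4, Oxt, Hcrt and of Pomc in adults are all under 1 TPM.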

How the results depend on the processing

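No member passed in the age or haplotype comparisons under any alternative run or with any library left out. Over all genes, age without the diet gave 4 calls, 1 with a pseudocount of 0.1, 1 without the low filter, 65 with all 24 libraries in the fit, and 1 to 5 with a library left out: 1 without Hap-I aged library 1, 3 or 4 or Hap-I adult library 1, and 2 without Hap-I adult library 3. Age on the diet gave 4 calls, 2199 with array weights, 443 with all 24 libraries, 2 with only the groups compared, and 2 to 30 with a library left out: 9 without Hap-I aged library 3, 30 without Hap-I aged library 4, 13 without Hap-I adult library 1 and 2 without Hap-I adult library 3. Haplotype gave 10 calls, 51 with array weights and 6 to 8 with a library left out: 6 without Hap-I library 1, 2 or 4 or Hap-II library 2 or 4. Groups on the diet share replicate numbers, and with the number as a block age on the diet gave 2 calls and haplotype 5. Same-numbered libraries correlated at 0.04 to 0.46 and -0.04 to 0.53. The highest correlation with another number was -0.05 to 0.44 and 0.13 to 0.30. The same number was ahead for numbers 1, 3 and 4 in both comparisons and behind for number 2. The labels state no pairs and the main fits took none, and whether the numbers mark pairs was not tested. No paired analysis was possible for the other comparisons because the titles give those groups different numbers. The cause of these shifts was not tested. For age without the diet, signs turned for Tbr1 (0.03) with median-of-ratios (-0.10), quantile scaling (-0.11), array weights (-0.12) and mitochondrially encoded genes removed (-0.019), for Tcf7l2 (0.09) with the first 3 settings (-0.0034, -0.020 and -0.024), for Sst with median-of-ratios (-0.0018) and for Drd1 with array weights (-0.11). With a library left out, the changes ranged from -0.17 to 0.23 for Tbr1, -0.41 to 0.093 for Cux2, -0.26 to 0.066 for Rorb, -0.020 to 1.34 for Drd1, -1.14 to 0.23 for Drd2, -1.39 to 0.10 for Adora2a, -0.92 to 0.20 for Rgs9, -0.88 to 0.47 for Penk, -0.71 to 0.22 for Tac1 and -0.0017 to 0.32 for Sst. Against C57, Adora2a gave -0.072 with quantile scaling and -0.66 to 0.83 with a library left out, and Ppp1r1b -0.085 with median-of-ratios and -0.37 to 0.68. In alternatives chosen after seeing the data, the 6 members and 15 genes at 3-fold in Hap-I adult library 4 became 7 and 35 at 2-fold, 5 and 9 at 5-fold, 7 and 16 after median-of-ratios scaling and 6 and 280 without the low filter. Depth is unknown, so values near 0 carry no error of their own.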
